A study of Homo sapiens with 15 samples.

Results

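The comparison described here set HCT116 cells treated with SARB directly against HCT116 cells treated with 5-FU alone. HCT116 is an established human colorectal carcinoma line. SARB is a hybrid compound made from thymoquinone (TQ), a quinone of black cumin seed, and 5-fluorouracil (5-FU), the fluoropyrimidine used against colorectal cancer. The 3 SARB samples received 35 µM and the 3 5-FU samples 15 µM, and all 6 were collected after 24 h, so the compound and its dose cannot be told apart in any difference below. They are 6 of the 15 samples of the series. The series also holds 3 untreated control samples, 3 samples with 40 µM TQ, and 3 with TQ and 5-FU together at 35 µM each (Combi). Each group held 3 biological replicates of this 1 line. The compounds were stocked in DMSO, and the control samples are labelled untreated. The readout was a hybridisation panel (nCounter PanCancer Pathways) that counts barcoded probes without amplification, and all 730 endogenous genes on it entered the comparison, out of 770 genes with the housekeeping genes.

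5-FU is converted in cells to nucleotides that block thymidylate synthase and are built into RNA and DNA, and the resulting replication stress activates p53 where the protein is functional, as it is in HCT116. p53 then induces the CDK inhibitor CDKN1A, its own ubiquitin ligase MDM2 and death receptors. Integrins and laminins anchor epithelial cells to the basement membrane, and the integrin pair of ITGA6 with ITGB4 binds a laminin that holds the LAMA3 and LAMB3 chains.

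The 5-FU samples held 238738 to 261686 endogenous counts and the SARB samples 226357 to 568343, the highest of them in SARB replicate 3. Raw counts were divided by the geometric mean of 40 housekeeping genes of the same sample, relative to the mean over the 15 samples, and are called scaled counts below. Probes differ in efficiency, so levels are compared between samples and not between genes. Over 730 genes, log2 scaled counts of SARB and 5-FU samples correlated at r = 0.974 to 0.987 in the 9 pairs, against 0.972 to 0.983 within SARB and 0.983 to 0.988 within 5-FU, while SARB and control samples gave 0.927 to 0.962. These are correlations across genes of 1 panel and describe likeness only. All SARB and 5-FU samples were run on cartridge 1 with control replicate 1, while control replicates 2 and 3 were on cartridge 2. There the negative probes averaged 12 and 12.2 counts, against 6.75 in control replicate 1. Within cartridge 1 they averaged 6.9, 7.4 and 10 counts in 5-FU replicates 1, 2 and 3. In SARB replicates 1, 2 and 3 they averaged 7.1, 12.1 and 6.5. Calls against control below come from the fit without cartridge. For the genes whose calls against control are given, they were the same with cartridge as a block and within cartridge 1, which holds 1 control sample, except for ITGB4 with SARB. The summed scaled counts of 11 epithelial markers were 16090 to 16690 with 5-FU and 12657 to 14585 with SARB, against 5287 to 7160.0 in control, and none of the 11 was at the level of the negative probes in all 6 samples. SFN, counted among the p53-induced genes below, gave a large part of that sum with both compounds. It was called above control by log2 2.83 with 5-FU and 2.65 with SARB. LAMA3 and LAMB3 were also called above control with both compounds. What the sum says of epithelial identity was not tested. The haematopoietic, stromal and neural marker lists summed to at most 391.9, 203 and 364 in these 6 samples, and 11 of 16, 7 of 11 and 7 of 15 of their genes were not above the negative probes in any of the 6.

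SARB and 5-FU differed at few genes. By the edgeR quasi-likelihood fit, with p adjusted over 730 genes after Benjamini and Hochberg, 9 genes (1.23%) were lower with SARB at an adjusted p of at most 0.05 and at least 1.5-fold, and 0 (0%) were higher. The 9 were ITGB4, PRDM1, CDK2, ITGB8, IDH2, DUSP6, NGFR, LAMA3 and BMP4. At an unadjusted p under 0.05, 76 genes (10.4%) were lower and 11 (1.51%) higher. DESeq2 on the same housekeeping scale called 10 lower and 0 higher, and with its own size factors 0 either way. Without the fold limit 15 genes (2.05%) passed the adjusted p, all of them lower with SARB.

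The overall direction rested on the scaling. The median log2 difference of SARB minus 5-FU was -0.16 over all genes on the housekeeping scale, with 510 genes (69.9%) below 0. It was -0.02 with edgeR's TMM factors, which set the bulk of the endogenous genes equal, so the scalings differed by more than 0.1. After TMM no gene was called in either direction, the lowest adjusted p was 0.253, and an unadjusted p under 0.05 was reached by 24 genes that were lower and 49 that were higher. The 40 housekeeping genes themselves ranged from -0.38 to 0.46 in log2 difference, with 17 higher and 23 lower with SARB. SARB replicate 3 bore on the shift. Over 514 genes averaging at least 20 raw counts in the 15 samples, its mean log2 level stood -0.35 from the control mean. SARB replicates 1 and 2 stood at -0.13 and 0.02. Without SARB replicate 3 the median was -0.02, without SARB replicate 2 it was -0.27, and without 5-FU replicate 3 it was -0.09.

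**Figure D1:**
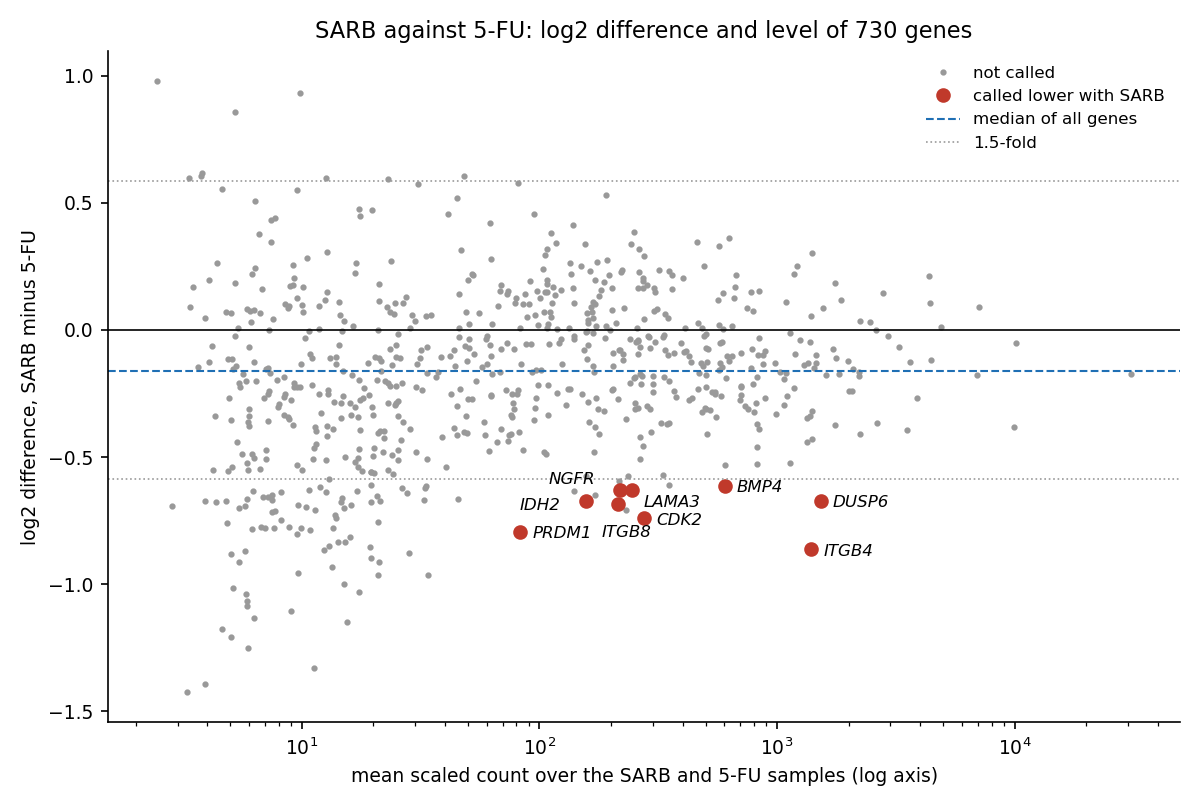
Log2 difference of SARB minus 5-FU (y axis, housekeeping scale) against the mean scaled count over the 6 samples (x axis, log axis) for 730 genes, each 1 point. The 9 called genes, in red, lie between -0.86 and -0.61, and the dashed line at -0.16 marks the median of all genes, below the solid line at 0.

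Among integrin and laminin genes, 3 of the 44 matrix and adhesion genes on the panel were called lower with SARB, beside 9 of all 730 (1.23%), and 0 higher. ITGB4, the beta subunit of the hemidesmosome integrin, gave 1864, 1773 and 1737 scaled counts in the 3 5-FU samples and 1102, 884 and 965 in the 3 SARB samples. No SARB sample reached any 5-FU sample, and the level was 1.82-fold lower with SARB (log2 difference -0.86, SE 0.17, edgeR adjusted p = 0.0241). Control samples averaged 804 ± 321 (SD, n = 3), so the SARB mean of 984 ± 110.0 lay nearer control than the 5-FU mean of 1791 ± 65.3. Against control, ITGB4 was called higher with 5-FU (log2 1.16) and not with SARB (log2 0.29). With cartridge as a block it was called higher with both, at log2 1.56 and 0.69, and likewise within cartridge 1.

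LAMA3 encodes the alpha chain of the laminin that this integrin binds. It counted 295, 322 and 275 with 5-FU and 194, 164 and 214 with SARB, 1.55-fold lower with SARB (log2 difference -0.63, SE 0.13, edgeR adjusted p = 0.0241). Both treated groups stood far above control at 31.7 ± 6.00 (SD, n = 3), by log2 3.23 with 5-FU and 2.60 with SARB. The partner chain LAMB3 did not pass the test between the compounds. It averaged 583 ± 34.9 with 5-FU and 564 ± 105 with SARB (SD, n = 3; 95% interval of the log2 difference -0.35 to 0.25). ITGA6, the alpha partner of ITGB4, averaged 1772 ± 207 and 1682 ± 66.8 (interval -0.34 to 0.19).

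ITGB8, the beta subunit of an integrin that binds latent TGF-beta, counted 266, 276 and 252 with 5-FU and 147, 188 and 161 with SARB. It was 1.61-fold lower with SARB (log2 difference -0.69, SE 0.13, edgeR adjusted p = 0.0241), with no overlap. Here control was at 291 ± 26.7 (SD, n = 3), so 5-FU lay near control (log2 -0.14, not called) and SARB lay below control (log2 -0.82, called lower). ITGB4 and LAMA3 are also 2 of the 11 epithelial markers, of which 10 lay below 0 with a median of -0.18 (-0.03 after TMM), and the part of that sum in these calls was not tested. The median over the 44 matrix and adhesion genes was -0.23, beside -0.16 for all genes, and -0.11 beside -0.02 after TMM. It was 0.03 without SARB replicate 3 and -0.47 without SARB replicate 2. THBS1, which encodes the matrix glycoprotein thrombospondin 1, was the 1 member whose SARB samples all lay above the 5-FU samples, at 322, 283 and 248 against 203, 225 and 224. Its log2 difference of 0.39 had an edgeR adjusted p of 0.259.

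RefSeq windows of 250 bases before the annotated start (GRCh38.p14) were held for 6 of the 9 called genes, matched by symbol, of which DUSP6, IDH2, ITGB8 and LAMA3 had 1 start each, BMP4 and PRDM1 several. CDK2, ITGB4 and NGFR had none in the table used. They are shown for genes that were lower together, with matches in capitals to 3 common promoter motifs searched on both strands: the AP-1 site TGANTCA, the GC box GGGCGG and CCAAT. No matches overlapped, and IDH2 held none of the 3. Of 35116 windows of the same length in the table, 6.57% held the AP-1 letters, 42.6% the GC box and 32% CCAAT. LAMA3 lies at chr18:23872770-23873019, plus strand, ITGB8 at chr7:20330650-20330899, plus strand and DUSP6 at chr12:89352502-89352751, minus strand, each printed 5′ to 3′ on the gene's strand.
LAMA3: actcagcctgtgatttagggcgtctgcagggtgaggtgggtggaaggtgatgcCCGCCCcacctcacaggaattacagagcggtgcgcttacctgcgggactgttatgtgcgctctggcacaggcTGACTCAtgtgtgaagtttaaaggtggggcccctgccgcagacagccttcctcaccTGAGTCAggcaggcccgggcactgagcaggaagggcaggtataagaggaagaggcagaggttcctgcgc
ITGB8: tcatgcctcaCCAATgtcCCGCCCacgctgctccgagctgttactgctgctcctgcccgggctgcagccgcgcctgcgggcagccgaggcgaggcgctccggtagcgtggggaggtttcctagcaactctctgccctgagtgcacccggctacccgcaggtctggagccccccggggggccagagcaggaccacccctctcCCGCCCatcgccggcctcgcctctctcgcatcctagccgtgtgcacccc
DUSP6: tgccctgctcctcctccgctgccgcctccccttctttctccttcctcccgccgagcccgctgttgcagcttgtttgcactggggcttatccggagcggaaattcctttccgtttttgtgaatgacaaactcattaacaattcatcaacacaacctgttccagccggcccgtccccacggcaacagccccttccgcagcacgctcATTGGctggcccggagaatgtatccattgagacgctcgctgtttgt
The LAMA3 window held the AP-1 letters at 2 places and the GC box at 1, the ITGB8 window the GC box at 2 and CCAAT at 1, and the DUSP6 window CCAAT at 1. These matches describe letters only.

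DUSP6, a phosphatase that removes the activating phosphates of ERK and is itself an ERK target, counted 1931, 1884 and 1805 with 5-FU and 1251, 1100.1 and 1173 with SARB. The groups did not overlap, and the level was 1.59-fold lower with SARB (log2 difference -0.67, SE 0.14, edgeR adjusted p = 0.0241). Against control at 1855 ± 501 (SD, n = 3), SARB was called lower (log2 -0.66) and 5-FU was not called (log2 0.02). It was the 1 gene called among 13 ERK feedback genes, beside 1.23% of all genes, and their median was 0.03 (0.20 after TMM). DUSP5, another ERK phosphatase, averaged 4243 ± 104 with 5-FU and 4571 ± 384 with SARB (SD, n = 3; interval -0.11 to 0.32), both called higher than control at 1067 ± 135.

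CDK2 encodes the kinase that works with cyclins E and A in S phase entry. It counted 386, 370.1 and 274 with 5-FU and 266, 199 and 157 with SARB, 1.67-fold lower (log2 difference -0.74, SE 0.18, edgeR adjusted p = 0.0295). The lowest 5-FU sample, replicate 3, stood just above the highest SARB sample, replicate 1. Neither compound was called against control for CDK2 (log2 0.16 with 5-FU, -0.58 with SARB). It was the 1 gene called among 26 G1 cyclins, CDKs and inhibitors, beside 1.23% of all genes. In that list 10 had every SARB sample below every 5-FU sample and 1 had every SARB sample above. Beside these stand 118 (16.2%) and 21 (2.88%) of all 730 genes. The list median was -0.21 (-0.04 after TMM), beside -0.16 (-0.02) for all genes.

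IDH2 encodes mitochondrial isocitrate dehydrogenase and counted 199.7, 192 and 188 with 5-FU and 138, 129 and 99.7 with SARB. It was 1.60-fold lower with SARB (log2 difference -0.68, SE 0.15, edgeR adjusted p = 0.0295). BMP4, a secreted ligand of the TGF-beta superfamily, counted 715, 753 and 710.3 with 5-FU and 543, 477 and 407 with SARB, 1.53-fold lower (log2 difference -0.61, SE 0.14, edgeR adjusted p = 0.0295). Neither gene's groups overlapped. Both were called lower than control with SARB (log2 -1.12 for IDH2 and -0.94 for BMP4) and were not called with 5-FU (log2 -0.45 and -0.33).

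NGFR and PRDM1 were called above control with both compounds and lay lower with SARB than with 5-FU. NGFR, the low-affinity neurotrophin receptor, counted 256, 289.7 and 246 with 5-FU and 173, 192 and 151 with SARB, 1.55-fold lower (log2 difference -0.63, SE 0.15, edgeR adjusted p = 0.0295). PRDM1, a transcriptional repressor of the PR domain family, counted 103, 98.1 and 115 with 5-FU and 56.6, 63.5 and 62.1 with SARB, 1.73-fold lower (log2 difference -0.79, SE 0.20, edgeR adjusted p = 0.043). No sample of one group reached the other for either gene. Against control, the log2 differences were 2.14 and 1.51 for NGFR and 2.20 and 1.41 for PRDM1, with 5-FU and SARB in that order.

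**Figure D2:**
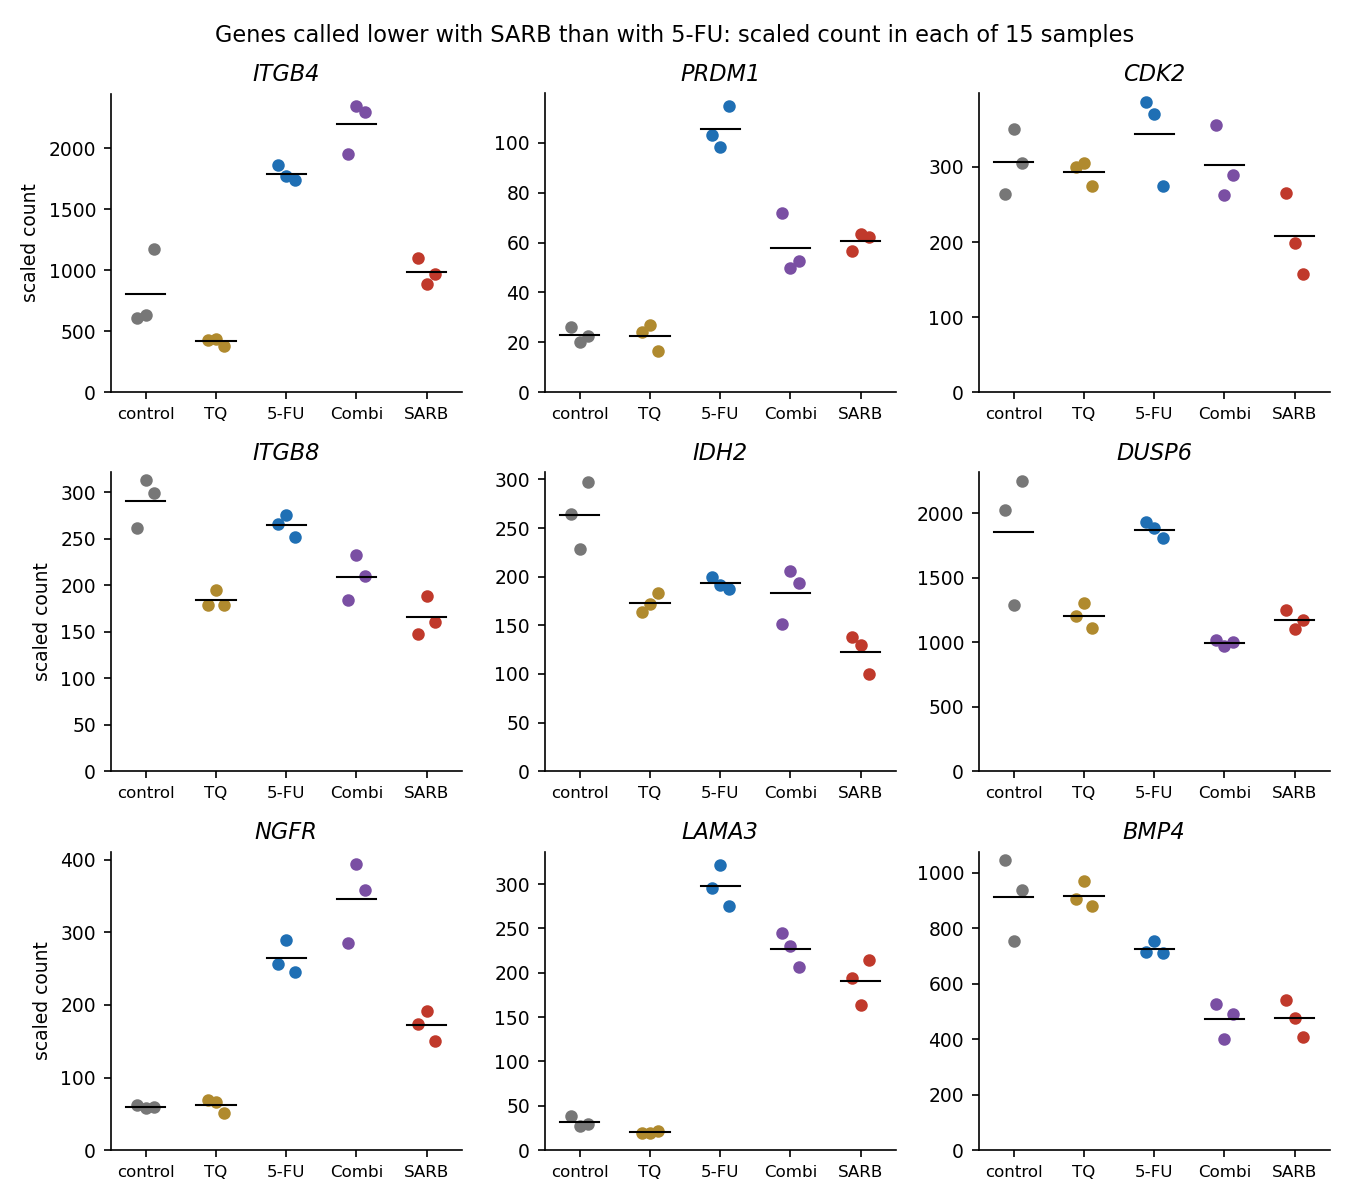
Scaled counts (y axis, from 0) of the 9 genes called lower with SARB than with 5-FU, 1 panel per gene, in the 15 samples by group (x axis); points are samples and bars group means of 3. In every panel the 3 SARB points lie below the 3 5-FU points, with the smallest gap in CDK2.

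Not all calls of these 9 genes were kept when single samples were left out, which also made a group smaller. Their log2 differences ran from -0.97 to -0.46 over the 20 alternative settings run, all below 0, and since their groups did not overlap, leaving out a sample could not turn them. Of the 9, 0 were called without SARB replicate 3, without 5-FU replicate 1 or without 5-FU replicate 2, 1 (ITGB8) without SARB replicate 2, 5 without 5-FU replicate 3 and 8 without SARB replicate 1. After TMM their log2 differences were -0.71 to -0.46, with adjusted p from 0.253 to 0.336.

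A further 6 genes passed the adjusted p below the fold limit. FANCG, of the Fanconi anaemia core complex, PKMYT1, an inhibitory kinase of CDK1, FEN1, the flap endonuclease of DNA replication, PRKACA, a catalytic subunit of protein kinase A, CCNB1, the mitotic cyclin B1, and RAD21, a cohesin subunit, stood at 0.67 to 0.76 of their 5-FU level with SARB. CCNB1 counted 1587, 1524 and 1487 with 5-FU and 1231, 1109.7 and 1047 with SARB (log2 difference -0.44, SE 0.10, edgeR adjusted p = 0.0295). FEN1 counted 714, 785 and 641 with 5-FU and 519, 550.1 and 418 with SARB (log2 difference -0.53, SE 0.13, edgeR adjusted p = 0.0295). None of these groups overlapped.

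CCNB1, PKMYT1 and RAD21 belong to the list of 18 mitosis and G2 genes, of which 0 reached the fold limit. So 0 were called in that list, beside 1.23% of all genes. In that list 15 lay below 0 and 6 had every SARB sample below every 5-FU sample, beside 118 of 730 genes (16.2%) overall. Its median was -0.19 (-0.07 after TMM), close to that of all genes. Among its members without a call, CCNA2, cyclin A2, averaged 1225 ± 28.4 with 5-FU and 1148 ± 101 with SARB (SD, n = 3; interval -0.34 to 0.16), both called below control at 2229 ± 315. Of the 16 DNA replication genes 0 were called, with a median of -0.11 (0.05 after TMM). Of the 44 DNA repair genes 0 were called, with a median of -0.08 (0.08 after TMM). Both counts stand beside 1.23% of all genes.

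Of 19 p53-induced genes on the panel, 0 were called between SARB and 5-FU, beside 1.23% of all genes, a count close to that background. By direction, 12 lay below 0 and 7 above, and the median was -0.10 (0.05 after TMM). Against control, 14 of the 19 were called higher with SARB and 15 with 5-FU, where 8.63% and 10.1% of all genes were called higher. For 14 of the 19 the 95% interval of the difference between the compounds lay within 1.5-fold either way, and for 17 within 2-fold.

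CDKN1A, the CDK inhibitor p21, counted 3414, 3698 and 4999 with 5-FU and 3733, 5352 and 4942 with SARB. The groups overlapped, and the 95% interval of the log2 difference was -0.14 to 0.57. MDM2, the ubiquitin ligase of p53, counted 6860.3, 6712 and 7072 with 5-FU and 7858, 6825 and 7277 with SARB (interval -0.12 to 0.30). SFN, the 14-3-3 sigma protein of the G2 checkpoint, counted 7137, 7232 and 7774 with 5-FU and 6910.2, 6967 and 5712 with SARB (interval -0.39 to 0.04), with every SARB sample below every 5-FU sample but an edgeR adjusted p of 0.516.

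EPHA2, an ephrin receptor kinase, averaged 1505 ± 143 with 5-FU and 1358 ± 212 with SARB (SD, n = 3; interval -0.57 to 0.27). GADD45A, a stress-induced growth arrest gene, averaged 1174 ± 147 and 955 ± 166 (interval -0.56 to -0.02, edgeR adjusted p = 0.333). The samples of the groups also separated for DDB2, a damage sensor of nucleotide excision repair, at 1582, 1629.5 and 1623 with 5-FU and 1310.2, 1196 and 1087 with SARB. DDB2 had a log2 difference of -0.43 and an edgeR adjusted p of 0.0856, short of the threshold. The decoy TRAIL receptors TNFRSF10C and TNFRSF10D separated in the same direction, with log2 differences of -0.36 and -0.31 and edgeR adjusted p of 0.252 and 0.193. The signalling receptors TNFRSF10A, TNFRSF10B and FAS overlapped, at -0.10, 0.03 and 0.02. Of the 19 genes, 4 had every SARB sample below every 5-FU sample and 1, THBS1, had every SARB sample above. Over all 730 genes these counts were 118 (16.2%) and 21 (2.88%), so the share below was near that background.

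**Figure D3:**
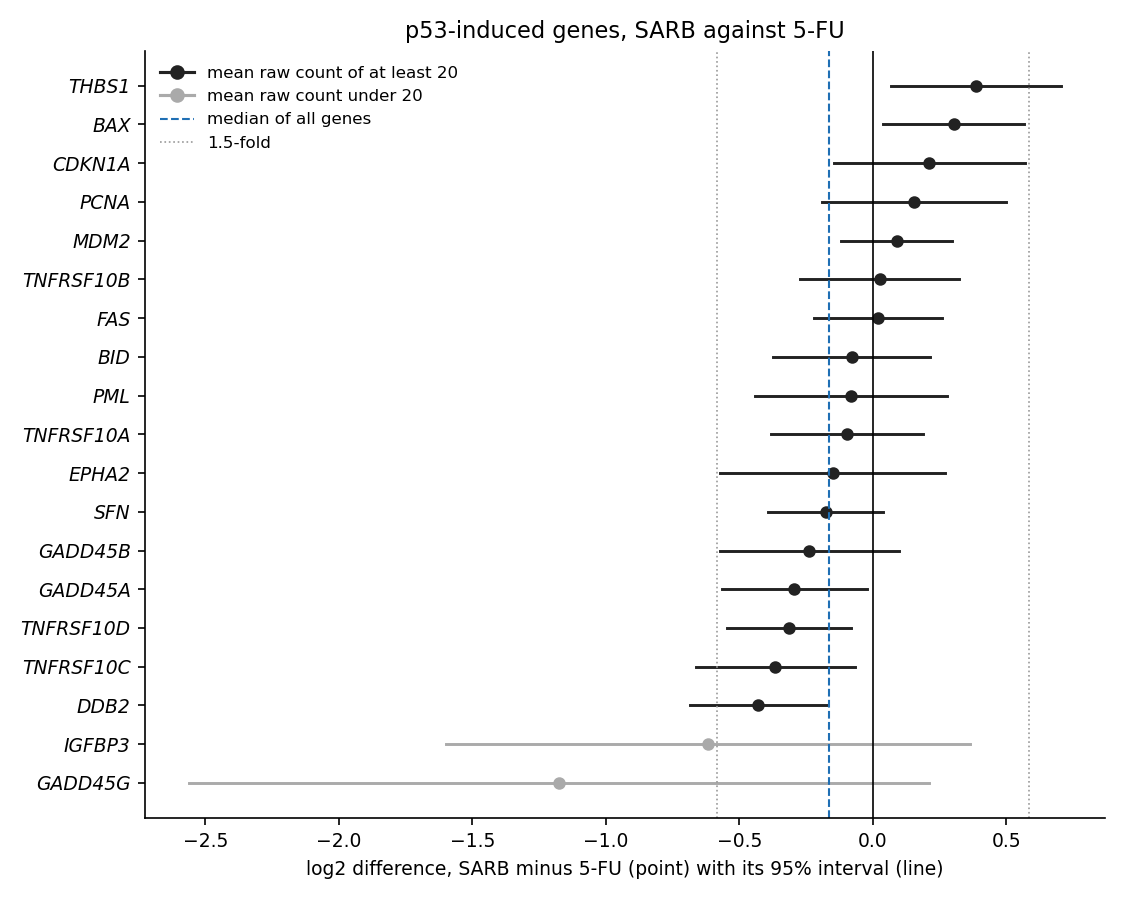
Log2 difference of SARB minus 5-FU (points, x axis) with its 95% interval (lines) for the 19 p53-induced genes on the panel (y axis); grey marks a mean raw count under 20 over the 6 samples. The points of the 17 genes in black lie between -0.43 and 0.39, inside the dotted 1.5-fold lines, and the dashed line marks the median of all genes at -0.16.

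HIST1H3B and HIST1H3H, replication-dependent H3 genes whose near-identical copies their probes may also read, were called below control with both compounds. Between the compounds 0 of 6 genes of the histone list, H2AFX included, were called, beside 1.23% of all genes. HIST1H3B counted 2269, 2241 and 2768 with 5-FU and 2948, 3194 and 1309.6 with SARB, and HIST1H3H 2312, 2089.5 and 2297 with 5-FU and 2461, 2038 and 1176 with SARB. SARB replicate 3 was the lowest of the 6 samples for both. The intervals were -0.42 to 0.48 and -0.66 to 0.17, and control samples averaged 16067 ± 2561 and 22795 ± 6521 (SD, n = 3). H3F3C, an H3 gene whose probe may also read related H3 genes, counted 11008, 11100.4 and 11575 with 5-FU and 9067, 9178 and 7595 with SARB (log2 difference -0.38, edgeR adjusted p = 0.0583). H3F3A averaged 2949.7 ± 329 and 2903 ± 223 (SD, n = 3; interval -0.24 to 0.19).

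Taken from the study were 30 genes that it named for SARB, among its CD133, WNT, PI3K/AKT, adhesion and angiogenesis genes. Of these, 2 (ITGB8 and LAMA3) were called lower with SARB than with 5-FU and 0 higher, beside 1.23% and 0% of all genes. That list was chosen in the study on these samples, so it is no independent evidence of direction. In it 23 genes lay below 0 and 7 above, with a median of -0.19 (-0.02 after TMM), beside -0.16 and -0.02 for all genes. For 15 of the 30 the 95% interval lay within 1.5-fold and for 24 within 2-fold. Against control, 17 of the 30 were called lower and 7 higher with SARB, and 10 lower and 5 higher with 5-FU. With cartridge as a block these counts were 9 and 6 with SARB and 6 and 5 with 5-FU. Over the whole panel 146 of 730 genes were called lower and 63 (8.63%) higher with SARB, and 74 (10.1%) each way with 5-FU, which became 56 and 50 with SARB and 39 and 59 with 5-FU under the block.

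In the beta-catenin list 0 of 23 genes were called, beside 1.23% of all genes, a count close to that background. CTNNB1, beta-catenin itself, counted 2427, 2497 and 2894 with 5-FU and 2357, 2465 and 2995 with SARB, and its log2 difference of 0.00 had an interval of -0.23 to 0.23. CCND1, cyclin D1, averaged 2651 ± 227 and 2932 ± 249 (SD, n = 3; interval -0.17 to 0.46), TBL1XR1, a cofactor of beta-catenin transcription, 1110.1 ± 164 and 1318 ± 229.8 (interval -0.04 to 0.54), and PROM1, the surface glycoprotein CD133, 110.1 ± 14.6 and 122 ± 10.3 (interval -0.22 to 0.50). The WNT feedback gene AXIN2 averaged 49.4 ± 9.63 and 40.4 ± 6.23 (interval -0.78 to 0.19). The receptor FZD3 had an interval of -0.24 to 0.49 and the ligand WNT16 of -0.45 to 0.16. The antagonist DKK2 was near background at 16.3 ± 1.01 and 9.63 ± 6.19 (interval -1.87 to 0.17).

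The list of calcineurin, protein kinase A (PKA) and other genes of WNT signalling branches had 0 of 23 genes called, beside 1.23% of all genes. Its median was -0.17 (-0.01 after TMM). PRKACB, a catalytic subunit of protein kinase A, counted 483, 477 and 319 with 5-FU and 276, 188 and 360.4 with SARB. The groups overlapped through SARB replicate 3 and 5-FU replicate 3, and the log2 difference of -0.61 (SE 0.20) had an edgeR adjusted p of 0.163. PRKAR2B, a regulatory subunit, counted 195, 208 and 177 with 5-FU and 159, 149.8 and 138 with SARB without overlap (log2 difference -0.38, edgeR adjusted p = 0.193). The calcineurin catalytic subunits PPP3CA and PPP3CB had intervals of -0.51 to 0.06 and -0.72 to 0.03, and the small GTPase RAC1 of -0.39 to 0.09.

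In the PI3K, AKT and mTOR list 0 of 28 genes were called, beside 1.23% of all genes. Its median was -0.09 (0.06 after TMM). Of the genes named in the study, the kinase gene MAPK3 and the growth factor gene VEGFA had intervals of -0.84 to 0.02 and -0.32 to 0.27. Those of SOCS3, TGFB1, CACNB2, PDGFD and FGF9 were -0.33 to 0.47, -0.12 to 0.58, -1.06 to 0.85, -1.19 to 0.96 and -1.25 to 0.47, and the last 3 were measured near background.

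The Notch list had a median of -0.33 over 18 genes (-0.19 after TMM, -0.11 without SARB replicate 3), with 0 called, beside 1.23% of all genes. NOTCH1, the receptor, counted 329.9, 299 and 301 with 5-FU and 255, 255 and 154 with SARB, lowest in SARB replicate 3. Its log2 difference of -0.51 (SE 0.17) had an edgeR adjusted p of 0.176. Both compounds were called above control for it, by log2 1.76 with 5-FU and 1.25 with SARB. The ligand JAG1 separated the same way (log2 difference -0.40, adjusted p = 0.216), and NOTCH2 overlapped (335 ± 27.0 against 329 ± 32.2, SD, n = 3).

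Immediate-early genes gave 0 calls of 9, beside 1.23% of all genes, and a median of -0.19 (-0.01 after TMM). FOS, an AP-1 subunit, counted 71.6, 91.1 and 97.6 with 5-FU and 68.6, 93.5 and 63.4 with SARB (interval -0.67 to 0.19), while control averaged 112 ± 17.1 (SD, n = 3). FOSL1, another AP-1 subunit, MYC, the growth regulator, and ID1 and ID2, inhibitors of helix-loop-helix factors, had intervals of -0.36 to 0.19, -0.49 to 0.03, -0.48 to 0.09 and -0.51 to 0.02. The heat shock and stress list gave 0 calls of 10, beside the same 1.23%, and a median of -0.27 (-0.10 after TMM). DDIT3, a transcription factor of the unfolded protein response, counted 434, 386 and 398 with 5-FU and 617, 520.1 and 415 with SARB (interval -0.04 to 0.73), and the chaperones HSP90B1 and HSPB1 had intervals of -0.39 to 0.37 and -0.67 to 0.49.

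The remaining lists held 1 call or none, beside 1.23% of all genes. BMP4 was the 1 gene called among 33 TGF-beta, activin and BMP genes (median -0.20, and -0.06 after TMM), NGFR the 1 among 22 growth factor receptors (-0.13, 0.01) and PRDM1 the 1 among 36 chromatin genes (-0.08, 0.07). Of 37 RAS, RAF and MAPK kinases 0 were called (-0.25, -0.06), and 9 had all SARB samples below all 5-FU samples, beside 118 of 730 genes (16.2%). EGFR, the epidermal growth factor receptor, counted 479, 454 and 463 with 5-FU and 393, 417 and 348 with SARB (log2 difference -0.27, edgeR adjusted p = 0.456).

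Of 7 p53 regulators 0 were called (-0.08, 0.08 after TMM). BCL2L1, the survival protein BCL-XL, counted 1859, 1958 and 2094 with 5-FU and 1673, 1647 and 1252 with SARB (log2 difference -0.37, edgeR adjusted p = 0.153), and 0 of 23 death receptor and BCL2 family genes were called (0.00, 0.17 after TMM). No gene was called among 26 WNT ligands and receptors (-0.25, -0.13), 45 growth factors (-0.31, -0.20), 60 cytokine, JAK-STAT and NF-kB genes (-0.03, 0.12) or 10 polymerase II, splicing and nucleolus genes (-0.06, 0.09). Only 13 of the 26 WNT genes and 20 of the 45 growth factors reached a mean raw count of 20 over the 6 samples.

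**Figure D4:**
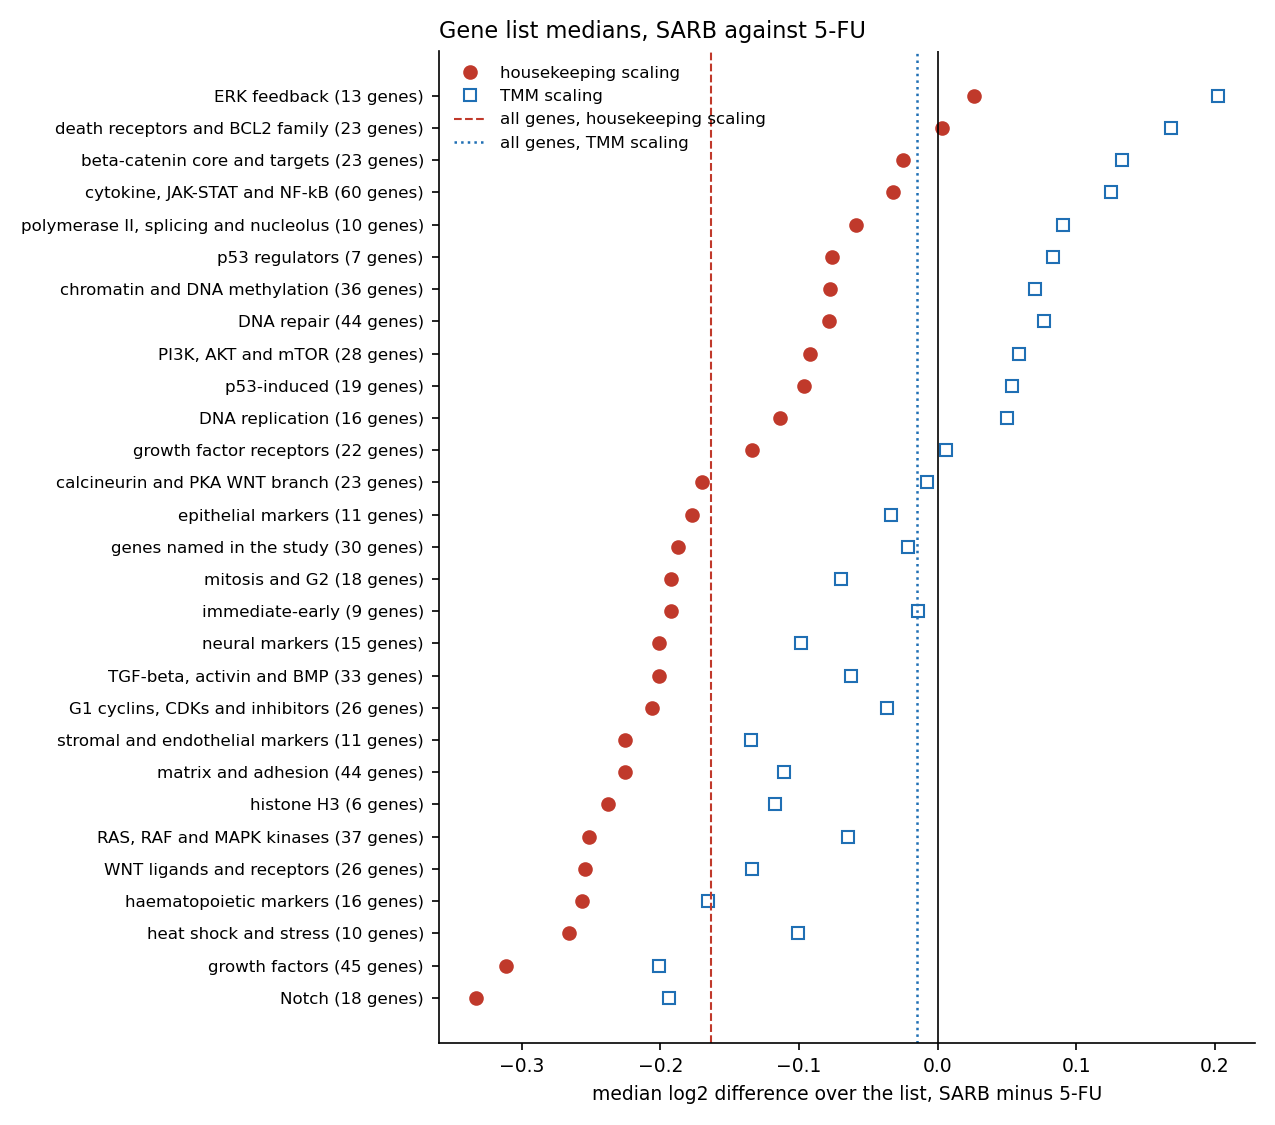
Median log2 difference of SARB minus 5-FU (x axis) over each of 29 gene lists (y axis, number of genes on the panel in brackets) with housekeeping scaling (filled circles) and TMM scaling (open squares); vertical lines mark the medians of all genes. List medians run from -0.33 to 0.03 with housekeeping scaling, around -0.16 for all genes, and from -0.20 to 0.20 with TMM, around -0.02.

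Separation of the samples themselves was more frequent than calls. In 139 of 730 genes (19.0%) the 3 SARB samples and the 3 5-FU samples did not overlap on the housekeeping scale, 118 (16.2%) with SARB below and 21 (2.88%) with SARB above. None of the 21 was called. Among them, and named here after their values were seen, EZH2, the H3K27 methyltransferase, counted 543, 509.7 and 589 with 5-FU and 620.4, 767 and 721 with SARB (log2 difference 0.36, edgeR adjusted p = 0.163). WNT10B, a WNT ligand, counted 57.5, 61.5 and 76.6 with 5-FU and 78.0, 110.3 and 104 with SARB (log2 difference 0.58, edgeR adjusted p = 0.191).

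On the housekeeping scale the intervals set how large an undetected difference could be, but they leave out the choice of scaling. Over 730 genes the 95% interval of the difference lay within 1.5-fold either way for 259 genes (35.5%) and within 2-fold for 432 (59.2%). Among the 333 genes with a mean raw count of at least 100 these were 240 (72.1%) and 326 (97.9%). After TMM the counts over all 730 genes were 232 (31.8%) within 1.5-fold and 459 (62.9%) within 2-fold. The median half-width of the interval was 0.48 on the log2 scale over all genes and 0.3 over those 333, so differences under 1.5-fold were not resolved for most low genes. Fewer cells expressing a gene and less RNA per cell cannot be told apart in these lysates.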

How the data were processed

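HCT116 cells were treated for 24 h and assayed on the nCounter PanCancer Pathways Panel. Per the labels and methods, the authors deposited raw counts per gene of 15 samples, and normalized signal values made in nSolver with housekeeping genes; these normalized values fell within 1% of raw counts minus the geometric mean of 8 negative probes (minimum 1), times a factor per sample. A deposited table of the authors' own fold changes and p-values against control was not used. Groups and replicate numbers came from the sample labels.

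Raw counts of 730 endogenous genes (226357 to 568343 per SARB or 5-FU sample) were fitted in edgeR 4.0.16 (R 4.3.3; glmQLFit, glmQLFTest), 15 samples in 1 model of 5 groups, with library sizes from 40 housekeeping genes and no filter. Genes were called from 1.5-fold with p, after Benjamini-Hochberg adjustment, no higher than 0.05. Intervals are 95% and cover the spread between replicates on the housekeeping scale, not the choice of scaling. That spread was estimated over all 5 groups without a cartridge term, though the control and Combi samples each lay on more than 1 cartridge. The fit was run on counts simulated with 1 fixed spread for all genes and groups, which these data need not share. Alternatives used TMM, DESeq2 1.42.0, limma 3.58.1 on log2(deposited normalized signal + 1), the test that the methods name, a filter at a mean of 20 counts, a floor of 20 counts, background subtraction, fewer samples, cartridge and replicate blocks, and leaving out each replicate; scaling by the housekeeping genes with at least 200 counts and cartridge terms against control were added after the data were seen. All 6 samples shared 1 cartridge, and 2 of the 3 control samples were on another.

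Gene lists were described by counts and medians without a set test. Named genes were the called genes without overlap (up to 12 each way, mean raw count of at least 20), called list members, the up to 4 most abundant uncalled members of 5 lists, and the genes named in the study; some genes are not reported here, and further members of these lists were named after their values were seen. The comparison, lists and rules were chosen with earlier results of these data known. Promoter windows came from a RefSeq table (GRCh38.p14). The panel's probe sequences were not used here. Within SARB and within 5-FU, replicates differed by more than counting noise (chi-square per degree of freedom 1.46 to 13.8), so none was counted as a duplicate.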

Additional observations from a re-analysis of the deposited data

How the results depend on the processing

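A count filter, a floor, background subtraction, DESeq2 on housekeeping factors, the 6 samples alone, the first cartridge, cartridge as a block and the added housekeeping subset called 8 to 10 genes lower with SARB and 0 higher. Among these, PRDM1 was lost with background subtraction (edgeR adjusted p = 0.145), where FANCG and PKMYT1 were called, and CDK2 with the 6 samples alone (edgeR adjusted p = 0.0544). The number called lower was 0 with TMM, 0 with DESeq2's own size factors and 1 with limma on the deposited values. That 1 gene was none of the 9 called in the main fit, whose limma adjusted p ran from 0.0697 to 0.376. The methods' test gave 22 lower and 6 higher at an unadjusted p, and 0 lower after Benjamini-Hochberg. Leaving out 1 replicate at a time gave 0 to 15 genes lower, 0 to 1 higher and 174 to 278 genes without overlap, the last of which can only rise as groups shrink. The cause of the lost calls was not tested. The median log2 difference of all genes ran from -0.28 with the floor to -0.01 with DESeq2's own size factors. Against control, and chosen after the data were seen, cartridge as a block gave 56 genes lower with SARB and 39 with 5-FU, and cartridge 1 alone 54 and 38, against 146 and 74 without it.

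With the replicate number as a block 9 genes were called lower, 8 of the same genes, with SETD2 in place of PRDM1. Same-numbered samples correlated in their deviations at 0.21, -0.05 and -0.37 over 514 genes, so the numbers were not taken as pairs. Not every sample correlated best with its own number.

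None of the uncalled genes near 0 that changed sign was called in any of these settings. With TMM and with DESeq2's own size factors, in that order, the log2 difference became 0.060 and 0.053 for FOSL1, 0.14 and 0.14 for HSP90B1, 0.039 and 0.028 for HSPB1, 0.14 and 0.14 for H3F3A, 0.0083 and 0.0020 for PDGFD, 0.014 and 0.0055 for CACNB2, 0.027 and 0.029 for WNT16, 0.12 and 0.12 for VEGFA, 0.083 and 0.082 for ITGA6 and 0.091 and 0.088 for LAMB3, and 0.0012 for RAC1 with TMM. With background subtraction, and in the same order on the deposited values (limma and the methods' test), it became -0.0050 and -0.10 for HIST1H3B, -0.050 and -0.046 for CTNNB1, 0.36 and 0.32 for PDGFD and 0.075 and 0.058 for CACNB2. With the replicate block it became -0.017 for HIST1H3B and -0.0014 for CTNNB1. Leaving out 1 replicate gave ranges of -0.24 to 0.022 for FOSL1, -0.20 to 0.11 for HSP90B1, -0.36 to 0.13 for HSPB1, -0.085 to 0.070 for H3F3A, -0.19 to 0.34 for HIST1H3B, -0.48 to 0.012 for HIST1H3H, -0.11 to 0.083 for CTNNB1, -0.63 to 0.18 for PDGFD, -0.45 to 0.16 for CACNB2, -0.044 to 0.25 for SOCS3, -0.048 to 0.24 for FZD3, -0.11 to 0.080 for VEGFA, -0.14 to 0.022 for ITGA6 and -0.21 to 0.071 for LAMB3.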
